A study of Arabidopsis thaliana with 5 samples.

Results

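Auxin, the plant growth hormone indole-3-acetic acid (IAA), is made mainly from tryptophan in a short pathway. Aminotransferases of the TAA/TAR family convert tryptophan to indole-3-pyruvate, and flavin monooxygenases of the YUCCA (YUC) family convert indole-3-pyruvate to IAA, usually as the rate-limiting step. In Arabidopsis the YUC genes overlap in function and differ in where they act, so that mutants have divided them into a set needed mainly in shoots (YUC1, YUC2, YUC4 and YUC6) and a set needed mainly in roots, to which YUC3, YUC5, YUC8 and YUC9 belong.

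Described here are 10 genes of this pathway, chosen by locus as 8 YUC genes (YUC1, 2, 3, 4, 5, 6, 8 and 9) and the aminotransferase genes TAA1 and TAR2, out of 34285 genes and unnamed transcripts on the array. Their transcripts were measured in whole 12-day-old Arabidopsis thaliana seedlings of the Atino80-5 mutant and of wild type (WT), grown on MS medium in long days; no treatment is given. Atino80-5 is a mutant named for INO80, the ATPase of a chromatin remodelling complex. The mutant had 3 arrays and WT had 2. The labels give neither the type of mutation nor the background strain. They do not say whether arrays of a genotype came from separately grown plants, and p-values therefore cover array-to-array spread alone, perhaps only technical.

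All 10 genes had a probe, YUC4 had a pair of them, and each of the 11 probes was a single spot that was well above background on all 5 arrays. Levels are given as a percentage of the array's own 75th percentile of signal, and a level is compared only between arrays, not between genes. Of all 43603 probes 77.3% to 81.6% were well above background on an array, and INO80 separated the labelled genotypes, with levels at its probe A_84_P20358 that were lower by 7.33 on the log2 scale in Atino80-5. A second INO80 probe, A_84_P835513, moved the other way, by 1.90, and the position of the mutation relative to these probes is not stated in the labels. Both WT arrays and Atino80-5 arrays 1 and 2 shared a slide and a scan, and Atino80-5 array 3 was on another. The dimmest signal called well above background was 11.8 to 22.4 units, depending on the array, and the YUC genes were dim, with processed signals from 19.4 units for YUC9 to 877 units for YUC2.

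Of the 10 genes, 7 were higher in Atino80-5, 0 were lower and 3 were not called (limma, adjusted p under 0.05 over all genes; 0 were lower at an unadjusted p under 0.05 too). Among the 26649 genes and transcripts tested, 30.7% were called higher, 26.4% lower and 57.2% in either direction. The median log2 change of the 10 genes was 0.23, and that of all genes tested was 0.01. For 7 of the 10 genes all mutant arrays lay on one side of both WT arrays. That share is close to the 74.6% of all genes tested without overlap, in either direction. Atino80-5 was the higher side for all 7, which are the same genes as the 7 called higher. The share of all genes tested without overlap and with Atino80-5 as the higher side was not counted. One of the 10 rose at least 2-fold, and 4.61% of all genes did. The calls differed in how firmly they held: TAA1, YUC5 and YUC9 passed the threshold in all 16 alternatives of the processing, while without WT array 1 or without WT array 2 they were the 3 genes left with a call. Leaving out a WT array leaves 1, which is then assumed to vary like the mutant arrays. Some of the 16 alternatives give equal log2 changes, so they are not separate checks.

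**Figure D1:**
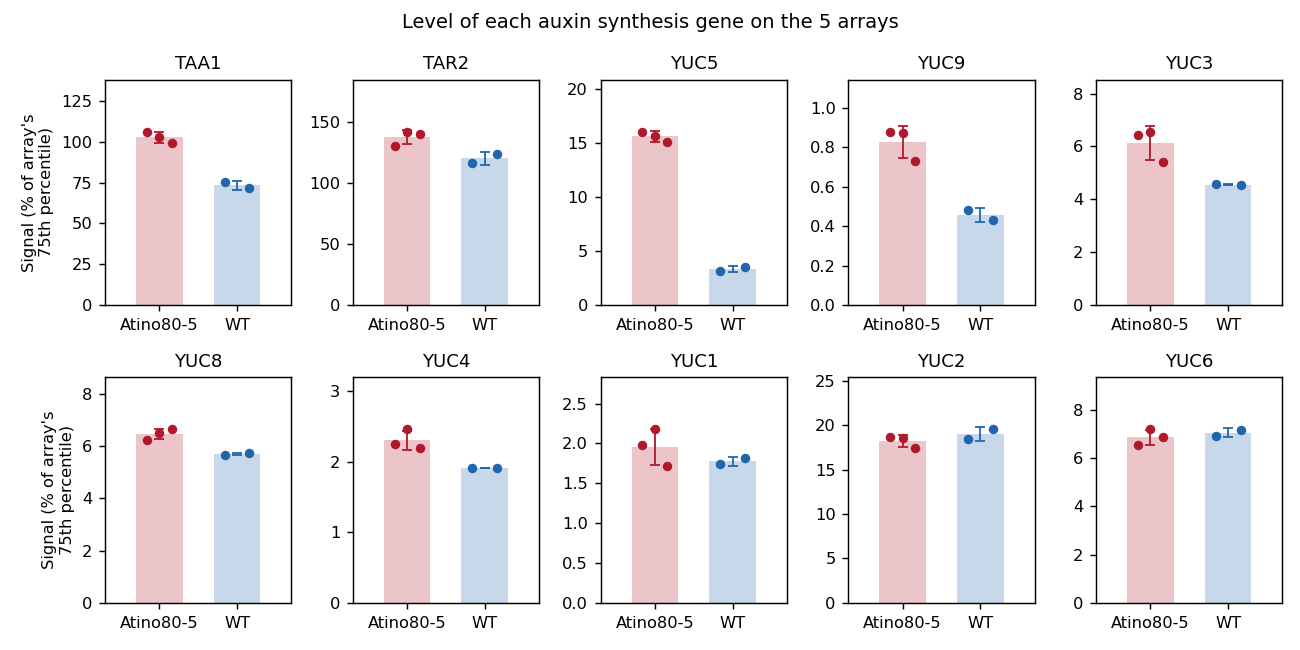
Signal of each of the 10 genes, in percent of the array's 75th percentile, for Atino80-5 (red, 3 arrays) and WT (blue, 2 arrays); points are arrays, bars are means and error bars are SD. The ratio between the genotypes is largest for YUC5, at 15.1% to 16.0% in Atino80-5 and 3.16% to 3.51% in WT, and overlap for YUC1, YUC2 and YUC6.

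Both aminotransferase genes were higher in the mutant, TAA1 by more than TAR2. TAA1 (AT1G70560) codes for the main tryptophan aminotransferase of the pathway, which acts in shade growth, root growth and the response of roots to ethylene. Its level was 106%, 103% and 99.2% of the 75th percentile in Atino80-5 and 75.5% and 71.6% in WT. The lowest mutant array was above the highest WT array by a wide margin. TAA1 rose 1.40-fold, a log2 change of 0.48 ± 0.044 (here and below ± is the SE of a log2 change, from 3 mutant and 2 WT arrays). Its 95% interval ran from 1.29-fold to 1.52-fold (adjusted p = 0.0011, limma). Within slide 1 the log2 change was 0.51, and over the alternatives it ran between 0.42 and 0.52.

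TAR2 (AT4G24670), the close relative of TAA1 that acts redundantly with it in vascular and flower development, changed little. Its level was 131%, 142% and 140% in Atino80-5 and 117% and 124% in WT. The genotypes did not overlap, but the gap between them was smaller than the spread within either. The rise was 1.14-fold, or 0.19 ± 0.052 on the log2 scale, with a 95% interval of 1.04-fold to 1.26-fold (adjusted p = 0.031, limma). The call was lost in 9 of 16 alternatives: without WT array 1 (adjusted p = 0.150), WT array 2 (0.057), Atino80-5 array 2 (0.080) or Atino80-5 array 3 (0.081), with arrays scaled by the median (0.088), with no filter on dim probes (0.062), with the slide as a block (0.081), within slide 1 (0.081) and with the replicate number as a block (0.052).

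The 4 YUC genes of the root set that are among the 10 were all higher, with log2 changes between 0.18 and 2.22 and a median of 0.64. YUC7, a YUC gene outside the 10, was not called and is given below. YUC5 stood out. YUC5 (AT5G43890), one of the YUC genes needed for normal root growth, was at 16.0%, 15.7% and 15.1% in Atino80-5 and at 3.16% and 3.51% in WT. Its 3 mutant arrays lay close together and far above both WT arrays. YUC5 rose 4.67-fold, by 2.22 ± 0.058 on the log2 scale (95% interval 4.20-fold to 5.20-fold, adjusted p = 4.5e-05, limma). Of all genes tested, 0.675% had a larger increase. This interval lay wholly above those of the other 9 genes, the highest of which reached 2.19-fold. With normexp background correction the log2 change of YUC5 was 1.87; in the other alternatives it was between 2.13 and 2.30, and within slide 1 it was 2.25.

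YUC9 (AT1G04180), which in Arabidopsis responds to jasmonate and wounding, had the next largest change, at signals close to background. It was at 0.877%, 0.869% and 0.732% in Atino80-5 and at 0.483% and 0.431% in WT. The genotypes did not overlap, and Atino80-5 array 3, which is alone on its slide, was the lowest of the mutant arrays. YUC9 rose 1.80-fold, by 0.85 ± 0.105 on the log2 scale (95% interval 1.49-fold to 2.19-fold, adjusted p = 0.0027, limma). Its WT signals of 21.7 and 19.4 units were near the lowest signals called well above background. Its log2 change under normexp was 0.32. Within slide 1 it was 0.94, and over the alternatives its adjusted p ran between 0.0012 and 0.019.

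YUC3 (AT1G04610), which acts redundantly with the other root genes, was at 6.44%, 6.55% and 5.40% in Atino80-5 and at 4.57% and 4.55% in WT. All 3 mutant arrays were above both WT arrays, and Atino80-5 array 3 was again the lowest of them. YUC3 rose 1.34-fold, by 0.42 ± 0.097 on the log2 scale (95% interval 1.12-fold to 1.60-fold, adjusted p = 0.020, limma). The call was lost without WT array 1 (adjusted p = 0.084), WT array 2 (0.085) or Atino80-5 array 1 (0.054), and within slide 1 the log2 change was 0.51 (adjusted p = 0.0016).

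YUC8 (AT4G28720), a target of the PIF growth factors in warmth and shade, was at 6.24%, 6.49% and 6.63% in Atino80-5 and at 5.66% and 5.72% in WT. The genotypes did not overlap, and the difference was small. YUC8 rose 1.13-fold, by 0.18 ± 0.036 on the log2 scale (95% interval 1.06-fold to 1.21-fold, adjusted p = 0.0125, limma). The call was lost without WT array 1 (adjusted p = 0.072) or WT array 2 (0.058), with quantile normalization (0.052), with the authors' value table (0.055) and with the replicate number as a block (0.066); within slide 1 the log2 change was 0.16 (adjusted p = 0.031).

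Of the 4 YUC genes of the shoot set, 1 was called higher and 3 were not called. Their log2 changes ran between -0.06 and 0.26, with a median of 0.05. YUC4 (AT5G11320), which acts with YUC1 in leaf, flower and embryo development, was covered by probes for different transcripts, and these differed. At the brighter probe, A_84_P18684, it was at 2.25%, 2.46% and 2.20% in Atino80-5 and at 1.92% and 1.91% in WT. These values did not overlap, and the rise was 1.20-fold, or 0.26 ± 0.057 on the log2 scale (adjusted p = 0.016, limma). At the other probe, A_84_P767924, it was at 1.72%, 1.56% and 1.44% in Atino80-5 and at 1.65% and 1.57% in WT. There the genotypes overlapped and the log2 change was -0.03 ± 0.086 (adjusted p over probes = 0.76, limma). Within slide 1 the log2 changes were 0.30 (adjusted p = 0.019) at the brighter probe and 0.03 at the other. With the mean of the pair of probes the log2 change of the gene was 0.12 (adjusted p = 0.15). The call was also lost with normexp background correction (log2 change 0.09, adjusted p = 0.079), quantile normalization (0.17, adjusted p = 0.058), the authors' value table (0.17, adjusted p = 0.060) and without WT array 1 or 2 (adjusted p = 0.074 each).

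YUC1 (AT4G32540), needed with YUC4 for flowers and leaf veins, was at 1.98%, 2.18% and 1.72% in Atino80-5 and at 1.74% and 1.81% in WT. Atino80-5 array 3 was the lowest of all 5 arrays, so the genotypes overlapped. The log2 change was 0.13 ± 0.108 (adjusted p = 0.34, limma), with a 95% interval from 0.899-fold to 1.34-fold. Within slide 1 its log2 change was 0.23 (adjusted p = 0.051).

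YUC2 (AT4G13260) and YUC6 (AT5G25620), which act redundantly in stamens and shoot growth, differed between genotypes by less than the spread of the arrays. YUC2 was at 18.7%, 18.5% and 17.5% in Atino80-5 and at 18.4% and 19.5% in WT. YUC6 was at 6.54%, 7.19% and 6.86% in Atino80-5 and at 6.92% and 7.18% in WT. For both genes the mutant arrays overlapped the WT arrays. The 95% interval of the change ran from 0.881-fold to 1.05-fold for YUC2 (adjusted p = 0.34, limma) and from 0.887-fold to 1.07-fold for YUC6 (adjusted p = 0.54), so a rise as large as that of TAA1 lies outside both intervals.

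**Figure D2:**
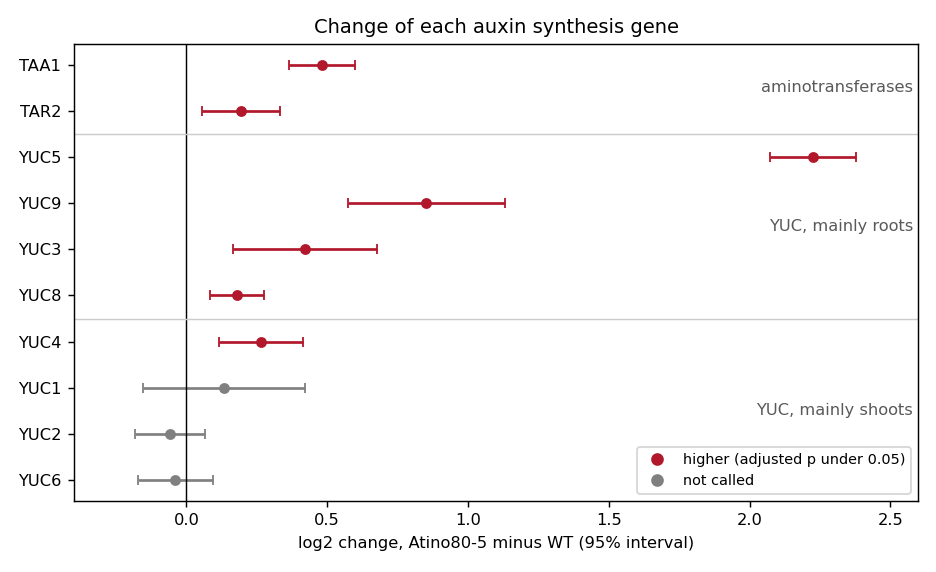
Log2 change of each of the 10 genes (Atino80-5 minus WT, horizontal axis) with its 95% interval from limma, grouped by role; red marks genes called higher and grey those not called. YUC5, at 2.22, lies apart from the other 9 genes, and the intervals of YUC1, YUC2 and YUC6 cross 0.

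The 4 other YUC and TAR genes looked at, YUC7, YUC10, YUC11 and TAR1, lay at or near background. YUC7 (AT2G33230) was at 0.490%, 0.781% and 0.526% in Atino80-5, with 2 of 3 arrays above background, and at 0.227% and 0.456% in WT, with 1 of 2. These did not overlap, but the log2 change of 0.86 ± 0.38 was not called (adjusted p = 0.11, limma). TAR1 (AT1G23320) was at 0.521%, 0.362% and 0.335% in Atino80-5, with 2 of 3 arrays above background, and at 0.578% and 0.926% in WT, a log2 change of -0.88 ± 0.29 that was not called either (adjusted p = 0.057, limma). YUC10 (AT1G48910) and YUC11 (AT1G21430), known for their expression in developing seeds, were not well above background on any array and were not tested.

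Of 11 genes that supply tryptophan, 6 were higher, 3 lower and 2 not called, with a median log2 change of 0.22. ASA1 and ASA2, for the alpha subunit of anthranilate synthase and so for the first committed step, fell by 0.47 ± 0.036 and 0.37 ± 0.036 (adjusted p = 0.00062 and 0.0014, limma). ASB1, for the beta subunit of the same enzyme, went the other way and was called higher, with a log2 change of 0.61. TSB2, for a beta subunit of tryptophan synthase, rose by 0.84 ± 0.068 (adjusted p = 0.00073), with levels of 99.4%, 109% and 113% in Atino80-5 against 58.4% and 61.7% in WT. TSB1 was called lower, with a log2 change of -0.20. TSB1 and TSB2, and the PAI genes, are close copies that could share signal.

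The indole-3-acetaldoxime branch feeds indole glucosinolates and camalexin and can also lead to IAA. Of 9 of its genes, 6 were higher, 1 lower and 2 not called, with a median log2 change of 0.42. Over all genes tested, 30.7% were called higher and 26.4% lower. With normexp background correction, quantile normalization, the authors' value table, the slide or the replicate number as a block, or within slide 1, 5 were higher. CYP79B3 and CYP79B2, whose enzymes convert tryptophan to indole-3-acetaldoxime, rose by 0.86 ± 0.028 and 0.70 ± 0.029 (adjusted p = 6.8e-05 and 0.00012, limma). CYP79B3 was at 136%, 139% and 136% in Atino80-5 and at 76.2% and 74.8% in WT. The nitrilase gene NIT2 rose by 0.75 ± 0.039 (adjusted p = 0.00021, limma). NIT3, CYP83B1 and CYP71A13 were called higher too, at log2 changes of 0.59, 0.42 and 0.29. NIT1, at -0.02, and SUR1, at 0.05, were not called, and AMI1 was called lower, at -0.46.

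A list of genes that lower IAA, by acting on IAA or on its precursor, gave 2 higher calls, 2 lower calls and 1 gene without a call among the 5 measured. These were DAO1, DAO2, IAMT1, UGT74D1 and VAS1. No GH3 gene is among them, and the counts cover this selection alone. One of the lower calls was VAS1 (AT1G80360), whose enzyme returns indole-3-pyruvate to tryptophan and does not act on IAA itself; its log2 change was -0.11 ± 0.031 (adjusted p = 0.038, limma). Without WT array 1, WT array 2, Atino80-5 array 2 or Atino80-5 array 3 the list had 1 lower call, and without Atino80-5 array 1 it had 3 higher calls and 1 lower. The largest changes were those of DAO2, which codes for a dioxygenase related to the IAA oxidase DAO1, and IAMT1, for an enzyme that methylates IAA. DAO2 (AT1G14120) was at 102%, 101% and 105% in Atino80-5 and at 42.0% and 42.4% in WT, a 2.44-fold rise (adjusted p = 3.8e-05, limma). IAMT1 was at 142%, 145% and 143% in Atino80-5 and at 65.8% and 67.6% in WT, a 2.15-fold rise (adjusted p = 4.4e-05, limma). The glucosyltransferase gene UGT74D1 fell by 0.31 ± 0.044 (adjusted p = 0.0044), and DAO1 itself had a log2 change of 0.09 and was not called (adjusted p = 0.26). The 7 amidohydrolase genes that free IAA from conjugates changed by at most 1.23-fold, with 2 higher, 3 lower and 2 not called. With quantile normalization, median scaling, the authors' value table or trended and robust eBayes 4 were lower. With no filter on dim probes 1 was lower, and with median scaling 1 was higher. The lower calls were 0 without WT array 1, without WT array 2 and with the replicate number as a block, and the higher calls were 1 without WT array 1, WT array 2 or Atino80-5 array 2. The 3 genes with the smallest p were ILL3 (0.30 ± 0.048), ILL6 (-0.14 ± 0.031) and ILL2 (0.20 ± 0.047), of which ILL6 and ILL2 lost their calls without WT array 1 (adjusted p = 0.095 and 0.072) or WT array 2 (0.074 and 0.0999), and ILL2 without Atino80-5 array 2 (0.060) or with median scaling (0.057). ILL6 also lost its call with normexp background correction (adjusted p = 0.072) and with the replicate number as a block (0.10).

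Transcription factor genes known to act on YUC or TAA genes included 5 called higher, 5 called lower and 3 without a call among the 13 measured; the median log2 change was 0.10. Over the alternatives 4 to 6 were higher and 3 to 5 lower, with 3 lower without WT array 2 or without any one of the mutant arrays. Among the PLETHORA group, AP2-type factors of root and shoot meristems, PLT7 rose by 1.64 ± 0.043 (adjusted p = 4.5e-05, limma) and PLT2 by 1.09 ± 0.026 (adjusted p = 3.9e-05). With normexp background correction these log2 changes were 0.86 for PLT7 and 0.49 for PLT2. PLT1, at a log2 change of 1.36, and BBM, at 1.08, were also called higher, while PLT5, at 0.16, was not called. PIF7, a light-regulated factor that activates YUC genes in shade, fell by 0.76 ± 0.035 (adjusted p = 0.00016), at 72.9%, 76.5% and 75.7% in Atino80-5 against 129% and 125% in WT. The other PIF genes of the list, named after their values were seen, did not share one direction: PIF4 fell by 0.70 ± 0.036 (adjusted p = 0.00020, limma), and PIF5 had a log2 change of 0.10 ± 0.035 and was not called (adjusted p = 0.064).

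**Figure D3:**
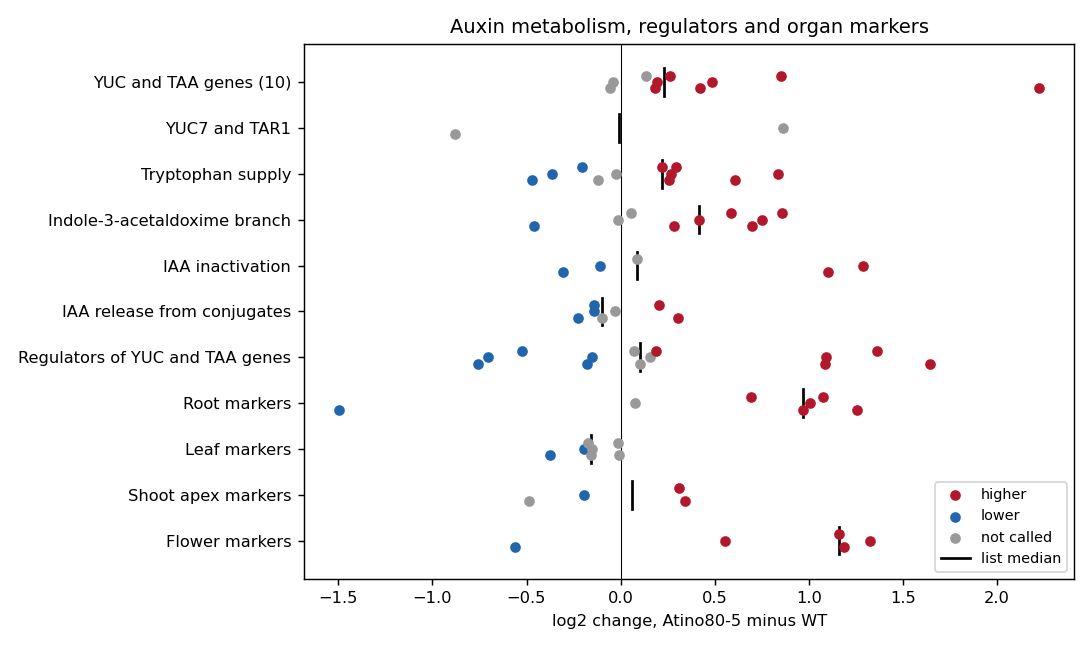
Log2 change (Atino80-5 minus WT, horizontal axis) of each measured gene of the 10 YUC and TAA genes, related lists and organ markers; each point is a gene, red is called higher, blue lower and grey not called, and black bars are list medians. The YUC and TAA genes have a median of 0.23, the acetaldoxime branch 0.42 and the root markers 0.97; seed markers are not drawn.

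Markers of organs, or of cell types within them, moved in the same arrays. Of 7 root markers, 5 were higher, 1 lower and 1 not called, with a median log2 change of 0.97. Their summed level was 167% to 172% in Atino80-5 and 111% to 118% in WT. Here and below such a sum follows the brightest markers of a list and shows little of the dim ones, such as WOX5. EXPA18 and PRP3 of root hairs rose by 1.25 ± 0.045 and 1.08 ± 0.049. EXPA7 and COBL9, also of root hairs, were called higher, at log2 changes of 1.01 and 0.69, as was CASP1, at 0.97. SHR, at 0.08, was not called. WOX5, a marker of the quiescent centre, fell to 2.69%, 3.02% and 2.72% in Atino80-5, against 8.07% and 7.77% in WT (adjusted p = 0.00012, limma). Of 7 leaf markers, 2 were lower, 0 higher and 5 not called, with sums of 51095% to 52711% in Atino80-5 and 56349% to 59025% in WT; LHCA2 fell by 0.37 ± 0.044. The leaf count depended on the processing, with 4 lower under median scaling and under trended and robust eBayes, 5 lower with the mean of a gene's probes, 1 higher and 1 lower with quantile normalization or the authors' value table, and 1 lower without WT array 2 or with the replicate number as a block. Of 5 flower markers, 4 were higher and 1 lower, with sums of 161% to 162% in Atino80-5 and 94.4% to 95.04% in WT. AP3 was the lower one, at a log2 change of -0.56, and PI was among the higher, at 1.16. The lower calls were 0 under trended and robust eBayes and with the filter set to all 5 arrays, where 4 flower markers were measured. Of 5 shoot apex markers, 4 were measured, 2 were higher, 1 lower and 1 not called, with sums of 73.5% to 76.2% in Atino80-5 and 61.8% to 61.9% in WT. WUS, a shoot stem cell marker, was not well above background on any of the 5 arrays and was not tested; CUC2, the shoot apex gene called lower, lost its call without WT array 1, without WT array 2, with the mean of a gene's probes and with the replicate number as a block. All 5 seed markers were higher, 3 of them not well above background on either WT array, with sums of 14.2% to 15.3% in Atino80-5 and 4.24% to 4.46% in WT. The median log2 change of the 5 seed markers was 3.37 as reported and 0.89 with normexp background correction. With the filter set to all 5 arrays 2 seed markers were tested, with a median log2 change of 0.73. CRA1 was called there, at 1.18. The other gene tested, represented by a different probe than as reported, was not called. Without any one of the mutant arrays 4 seed markers were called. In whole seedlings more cells of a type and more transcript per cell cannot be told apart, and the part of these organ markers in the changes of the YUC and TAA genes was not tested.

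The genes with a symbol whose pattern over the 5 arrays was most like that of YUC5 were CKX2, CYP702A5, PXMT1, CBF2 and ACS4. Their deviations from their own means differed from those of YUC5 by a root mean square of 0.049 to 0.065 on the log2 scale. CKX2, for a cytokinin oxidase, and ACS4, for an ACC synthase of ethylene synthesis, had log2 changes of 2.21 and 2.12, and CBF2, a cold response regulator with close copies, had one of 2.21. The 5 arrays fall into 2 genotypes, so this likeness rests mainly on the size of the change.

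**Figure D4:**
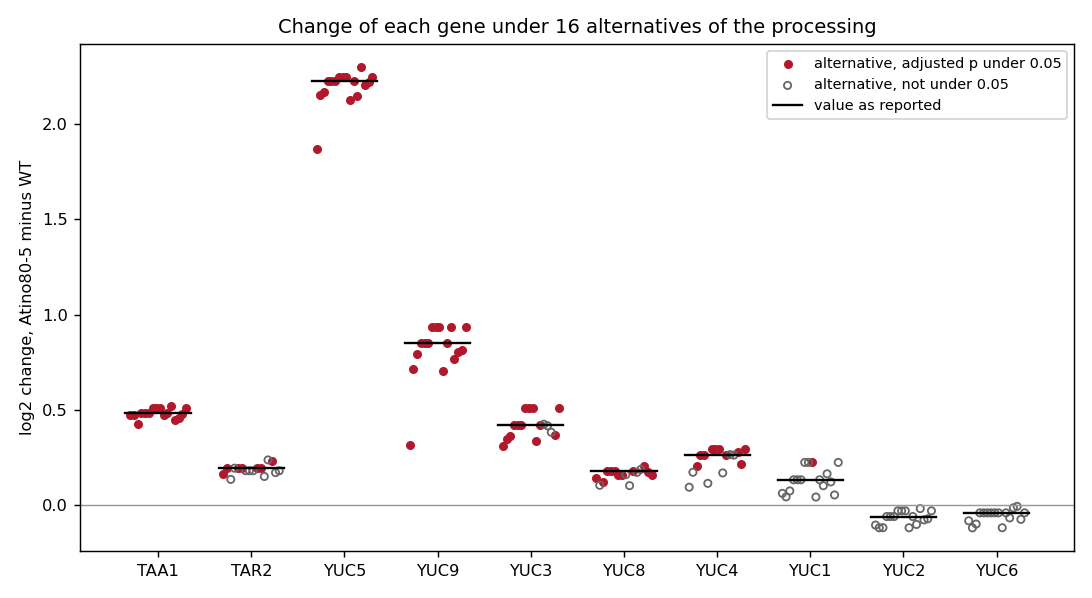
Log2 change of each of the 10 genes (vertical axis) in each of 16 alternatives of the processing, as red points where the adjusted p was under 0.05 and open points where it was not; black lines are the values as reported. TAA1, YUC5 and YUC9 are red throughout, and no point lies across 0 from its black line.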

How the data were processed

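RNA from each sample was converted to Cy3-labelled cRNA and hybridised to 1-colour Agilent arrays, per the labels' protocols. The deposited files hold a processed signal intensity per spot, written by Agilent Feature Extraction 10.7.3.1, per the file headers; the submitters' processing notes give version 9.1. The authors' value table holds log2 values and was used as an alternative only; its columns share a 75th percentile of 12.15 and correlate with the log2 processed signal at 0.9994 or more. It was read as quantile normalized and not centred, with the same direction as the signal; the medians of its columns were 9.6216, 9.6213 and 9.6213 for Atino80-5 and 9.6208 and 9.6213 for WT.

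Control spots (1417) and outlier spots (7 to 14 an array) were left out; no spot was saturated. The log2 processed signal was scaled by subtracting the 75th percentile of each array (4478, 4639 and 4805 units in Atino80-5, 4503 and 4494 in WT). Probes well above background on at least 2 of 5 arrays were kept (35190 of 43603), and the brightest probe represented a gene. Accessions were matched through RefSeq (TAIR10.1, names only; 34285 probes matched 1 locus and 9318 none). No coordinates are printed, since the build named in the array design differs from TAIR10.1. Close paralogs may share signal, since probe sequences were not used here; promoter and protein comparisons that had been planned were not made.

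Atino80-5 was compared with WT with lmFit and eBayes of limma 3.58.1 (R 4.3.3), Benjamini-Hochberg adjustment over all genes and a threshold of 0.05, with all 5 arrays and no covariate; the fit was tested on simulated data. Intervals are 95% intervals from the moderated fit. The number of arrays limits the precision. The 10 genes and all lists were chosen with earlier results of these data known. Named are the 10 genes, their 4 relatives, up to 3 genes of each list with the smallest p and the 5 genes most like YUC5; other names were chosen after values were seen. Tried as alternatives were normexp correction (on the median signal, offset 50), quantile normalization, median scaling, no filter or all 5 arrays as the filter, the mean of a gene's probes, the slide as a block, slide 1 alone, the authors' value table, the replicate number as a block, trended and robust eBayes, and leaving out each array.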

Additional observations from a re-analysis of the deposited data

How the results depend on the processing

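Over the 16 alternatives the log2 changes of the 10 genes kept their sign. The alternative within slide 1 uses the same arrays as leaving out Atino80-5 array 3. For the 10 genes the slide block and the replicate block gave the same log2 changes as these, so such alternatives are not separate checks. The second probe of YUC4 had a log2 change of -0.03 as reported and 0.030 with the slide as a block, within slide 1, with the replicate block and without Atino80-5 array 3, and 0.0036 without WT array 1; leaving out 1 array gave -0.10 to 0.030, and none of these passed the threshold. Leaving out 1 array left 3 to 6 of the 10 genes called higher: 3 without WT array 1, 3 without WT array 2 and 6 without any one of the mutant arrays. In the other alternatives 5 to 7 were called higher, and 0 were lower in any alternative. With the replicate block, TAR2 (adjusted p = 0.052) and YUC8 (0.066) lost their calls and YUC1 gained one (log2 change 0.23, adjusted p = 0.045). The deviations of equally numbered arrays correlated at 0.038 and 0.0051. The deviations of the 2 WT arrays mirror each other, so these correlations cannot settle whether the replicate numbers pair the arrays. With median scaling 6804 genes were higher and 9043 lower over all genes, or 42.9% of calls higher, against 53.8% with the 75th percentile. Normexp background correction moved the change of YUC9 to 0.32, YUC4 to 0.09 and YUC1 to 0.06. TAR1 passed the threshold in 7 alternatives and YUC7 in 2. The cause of these differences was not tested.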
